A study of Mus musculus with 6 samples.

Results

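The neurexins and neuroligins of the array were *Nrxn2*, *Nrxn3*, *Nlgn1*, *Nlgn2* and *Nlgn3*, and all 5 had events in the table of alternative RNA processing. All rows under these gene symbols were taken, which gave 15 events in 30 paths, out of 13002 events in 7788 genes. Each member event had intensities, as had 12948 events of 7766 genes in the whole table, whereas 54 events had none.

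Brain total RNA came from 6 mice of a B6.CAST congenic line, 3 homozygous for *Nxf1* B6 and 3 for *Nxf1* CAST, without treatment. Each genotype was represented in each of 3 same-sex littermate pairs (2 of females, 1 of males), and each mouse was hybridized to 1 Affymetrix MJAY array. The first pair was 46 days old in both genotypes. In the male pair the *Nxf1* B6 mouse was 22 days old and the *Nxf1* CAST mouse 23 days old, and the remaining pair was 23 days old in both genotypes. Mice of either genotype shared the B6 background, and those with *Nxf1* CAST also carried the stretch of chromosome 19 from CAST/Ei that surrounds the allele. *Nxf1* encodes the major export factor for mRNA. The question put to the arrays was whether its CAST allele changes choices between alternative RNA isoforms outside known retroviral insertions.

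MJAY arrays carry probes for the exons and junctions of each path of an event. A path that skips a segment gives an exclusion intensity, and the path that retains it gives an inclusion intensity; for alternative starts the terms only name the competing paths. The deposited intensities are pooled over the arrays of a set A and a set B. Neither a spread between mice nor a test across them could be computed from these intensities, and the number of arrays limits the precision. Columns with the authors' own score and q-value were not used, apart from the sign of the score. The sets are not named by genotype. The header of the table defines its score as mutant over wild type, and the sign of that score runs as set B over set A, so set B was likely *Nxf1* CAST and set A likely *Nxf1* B6. The isoform ratio of an event is the log2 of its exclusion to inclusion quotient in set B divided by that of set A, and its level difference is the log2 of both intensities summed in set B over set A. Exclusion and inclusion intensities are read by different probes, so their quotient within a set is not the abundance of an isoform, and a brighter probe signal in 1 gene than in another does not give the order of their RNA levels.

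Neurexins are adhesion molecules of the presynaptic membrane, and neuroligins are their classical postsynaptic ligands. Neurexin genes use separate promoters for long alpha and short beta forms and splice cassette exons at several fixed sites of the extracellular part, and splice site 4 among them governs the choice of postsynaptic partners. Neuroligins are spliced at fewer sites. *Nlgn1* acts mainly at excitatory synapses, *Nlgn2* at inhibitory synapses, and *Nlgn3* at both kinds.

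Start site choice was measured in *Nrxn2*, *Nlgn1* and *Nlgn2*. The RefSeq promoter windows of the neuroligin genes are shown because the largest level difference among the members came from the *Nlgn2* start. The windows hold the 250 bases before an annotated start in GRCm38.p6, 5′ to 3′ on the strand of the gene, with each CG dinucleotide in capitals. Of the 5 members, 3 had an entry (*Nrxn3*, *Nlgn1* and *Nlgn2*), with 6 windows among 32851 in the table. The *Nlgn2* window (chr11:69837785-69838034, minus strand) held 18 CG dinucleotides, and 21.7% of all windows held as many, with a median of 6. The windows of *Nlgn1* held 9 CG (chr3:26331910-26332159, minus strand) and 5 CG (chr3:26153987-26154236, minus strand), counts that 40.3% and 55.6% of windows reached. The build of the array table's positions is not given in the sources used here, so no window was assigned to a path of an event.
Nlgn2: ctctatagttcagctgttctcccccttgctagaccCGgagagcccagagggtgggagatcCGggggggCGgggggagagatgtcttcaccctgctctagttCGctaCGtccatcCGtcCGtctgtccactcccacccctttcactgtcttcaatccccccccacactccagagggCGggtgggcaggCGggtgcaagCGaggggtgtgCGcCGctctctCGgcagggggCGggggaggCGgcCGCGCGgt
Nlgn1 upstream: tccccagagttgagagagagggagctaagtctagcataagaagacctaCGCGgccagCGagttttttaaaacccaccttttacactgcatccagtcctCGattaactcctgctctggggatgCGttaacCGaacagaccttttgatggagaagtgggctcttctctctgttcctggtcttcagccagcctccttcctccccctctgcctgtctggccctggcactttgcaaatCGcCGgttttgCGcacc
Nlgn1 downstream: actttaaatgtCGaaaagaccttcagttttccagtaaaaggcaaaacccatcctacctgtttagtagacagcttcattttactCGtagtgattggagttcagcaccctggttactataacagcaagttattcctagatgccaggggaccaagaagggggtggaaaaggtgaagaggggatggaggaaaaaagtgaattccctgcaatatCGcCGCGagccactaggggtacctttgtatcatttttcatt

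None of the 15 neurexin and neuroligin events had an isoform ratio past 0.5 in size, beside 7.34% of all 12948 events. At that share few of 15 events would be past it, so the count does not set the members apart. Their largest isoform ratio was -0.24, in the *Nlgn2* cassette exon, and their median absolute isoform ratio was 0.08, against 0.18 over all events. The 90th percentile over all events was 0.45. In 12 of the 15 events the isoform ratio was smaller in size than in the median event. The share past 0.5 was lower among bright events. In the brightest of 5 equal groups of all events by summed intensity, which held 10 of the 15, it was 4.63% and the median absolute isoform ratio was 0.16. The isoform ratio was above 0 in 10 member events (66.7%), and in 55.5% of all events. These 10 include the 3 member starts, where exclusion only names a path. Of the 8 member cassette exons, 3 (37.5%) were above 0, toward exclusion in set B, against 56.6% of all cassette events. Rounding of the deposited intensities to whole numbers could move a member's isoform ratio by at most 0.02.

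**Figure D1:**
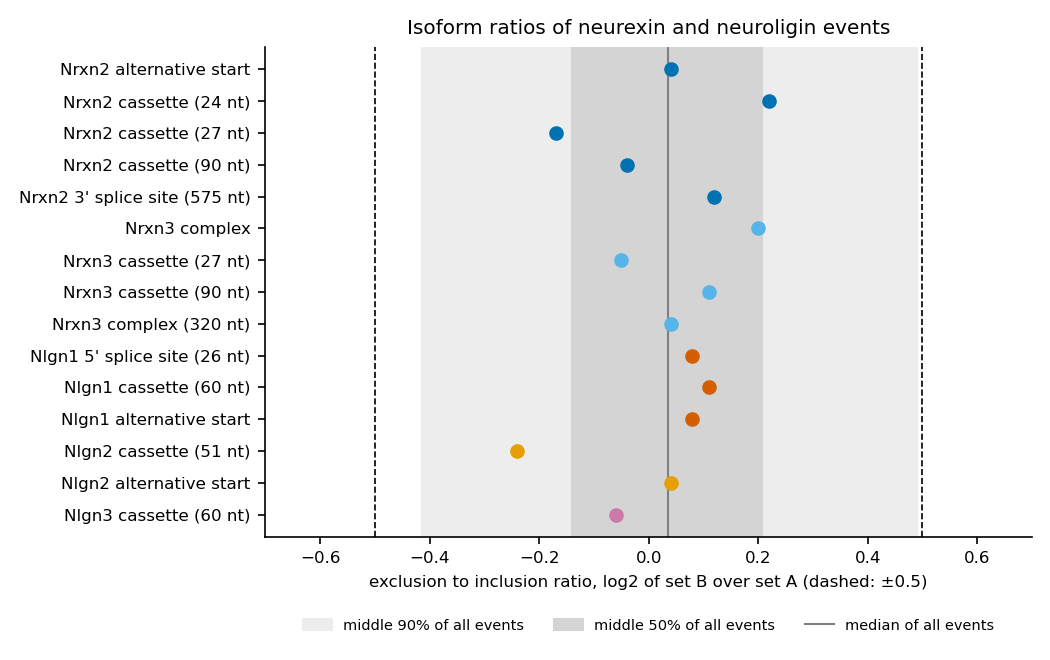
Isoform ratio (log2 of the exclusion to inclusion ratio in set B over set A) of each neurexin and neuroligin event, 1 point per event and without error bars because the values are pooled. Shading marks the middle 50% and 90% of all 12948 events, and 12 of the 15 points lie within the inner band from -0.14 to 0.21.

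Positions are given as in the table, whose genome build is not given in the sources used here. *Nrxn2* had 5 events on the plus strand of chromosome 19, between 6454978 and 6531843. The 90-nt cassette exon (6509949 to 6516922), which has the length of the exon at splice site 4, had an exclusion intensity of 2129 (set A) and 2053 (set B) and an inclusion intensity of 3062 and 3026, values that are given in this order from here on. Its isoform ratio was -0.04, and 10.7% of all events had a smaller one in size. The 24-nt cassette exon (6455280 to 6472257) had exclusion intensities of 246 and 292 and inclusion intensities of 296 and 301. Its isoform ratio of 0.22 was the highest of the members, with the difference on the exclusion path (0.25) rather than on the inclusion path (0.02). Its summed intensities of 542 and 593 were in the second dimmest of 5 equal groups of all events. The 27-nt cassette exon (6481855 to 6490087) had an isoform ratio of -0.17, from exclusion intensities of 118 and 113 and inclusion intensities of 486 and 522. The short cassettes of *Nrxn2* thus lay on opposite sides of 0, and the 90-nt cassette lay near 0.

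The start of *Nrxn2* (6454978 to 6504874) had exclusion intensities of 1591 and 1380 and inclusion intensities of 1227 and 1036. Both paths were lower in set B by a like amount (-0.21 and -0.24), which left an isoform ratio of 0.04. The alternative 3' splice site of 575 nt (6519327 to 6531843) had exclusion intensities of 860 and 724 and inclusion intensities of 3010 and 2336. Its isoform ratio was 0.12, whereas its level difference of -0.34 was the second lowest of the members, and 1.99% of all events had a lower one. *Nxf1* lies on chromosome 19 as well. The last *Nrxn2* position was 522 kb proximal of the event of *Fkbp2* (7053631 to 7054883), a gene that the study draws inside the congenic interval. For array differences inside that interval, the paper names probe mismatch or intrinsic allelic differences as the likely sources. Whether the CAST/Ei segment reached *Nrxn2*, and whether probe mismatch entered its intensities, was not tested.

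*Nrxn3* had 4 events on the plus strand of chromosome 12, between 89961334 and 91570548. Its 90-nt cassette exon (91407531 to 91442950), again of the length of splice site 4, had exclusion intensities of 1899 and 2046 and inclusion intensities of 3530 and 3518, for an isoform ratio of 0.11. The 90-nt cassettes of *Nrxn2* and *Nrxn3* thus had isoform ratios of -0.04 and 0.11, each smaller in size than in the median event. The precision of either value is unknown. The 27-nt cassette exon of *Nrxn3* (90751556 to 90771334) had exclusion intensities of 2543 and 2296 and inclusion intensities of 1287 and 1201, for an isoform ratio of -0.05. Like the *Nrxn2* exon of the same length, it was on the side of inclusion in set B.

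The remaining *Nrxn3* events combine several choices. The upstream complex event (89961334 to 90425486) had exclusion intensities of 428 and 388 and inclusion intensities of 1898 and 1502. Its isoform ratio was 0.20, the highest in *Nrxn3*, and its summed intensity in set B was 81.3% of that in set A. The downstream complex event of 320 nt (91522090 to 91570548) had inclusion intensities of 4232 and 3876, exclusion intensities of 751 and 707 and an isoform ratio of 0.04. Both complex events were above 0, though the downstream one came to 0.0 with centring on the median of all events.

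**Figure D2:**
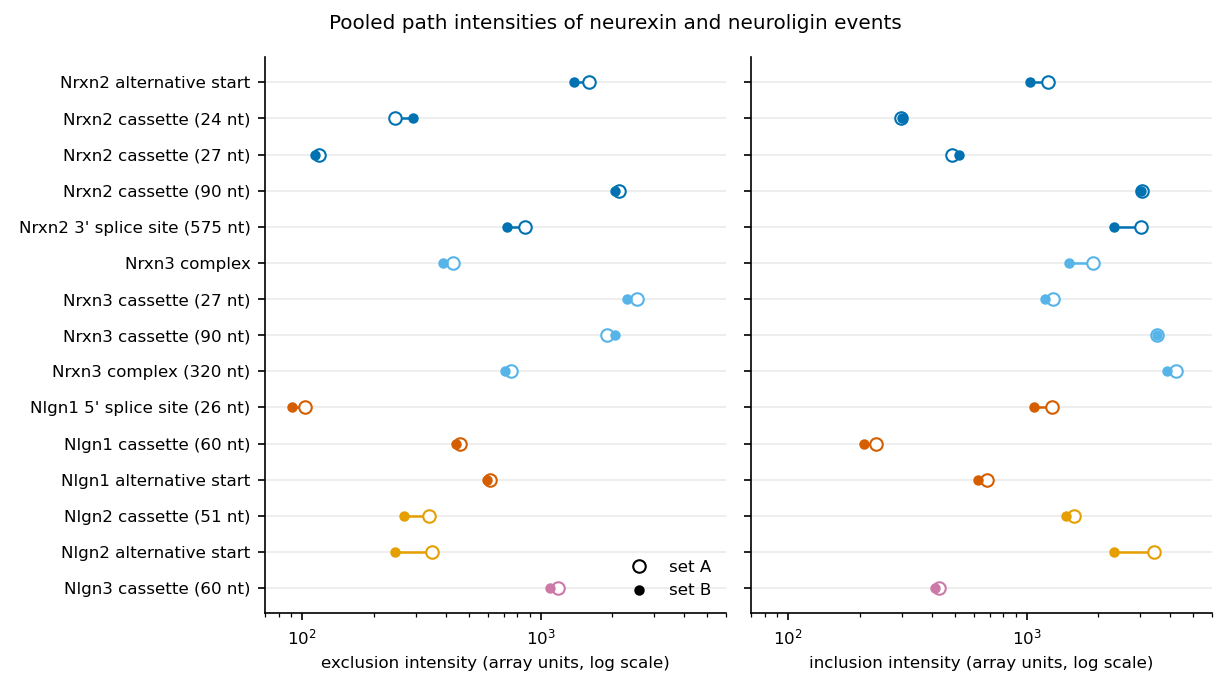
Exclusion intensity (left) and inclusion intensity (right) of each neurexin and neuroligin event, in array units on a log axis, with open circles for set A and filled circles for set B. On most lines the filled circle lies left of the open one, and the gap is widest for the *Nlgn2* start on both paths.

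*Nlgn1* had 3 events on the minus strand of chromosome 3. Its 60-nt cassette exon (25811716 to 26032163), which has the length of the insert at neuroligin splice site A, had exclusion intensities of 459 and 440 and inclusion intensities of 234 and 208, for an isoform ratio of 0.11. Its start (26032954 to 26230685) had exclusion intensities of 612 and 596 and inclusion intensities of 680 and 628, for an isoform ratio of 0.08. The alternative 5' splice site of 26 nt (25335564 to 25338813) had inclusion intensities of 1284 and 1071 and exclusion intensities of 103 and 91. These exclusion intensities were near the lowest value of the table, 43, and the isoform ratio was 0.08. The events of *Nlgn1* stayed within the narrow range of 0.08 to 0.11.

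*Nlgn2* had 2 events on the minus strand of chromosome 11. Its 51-nt cassette exon (69641996 to 69647504), of the length of its own insert at splice site A, had exclusion intensities of 340 and 267 and inclusion intensities of 1580 and 1467. Exclusion was lower by more (-0.35) than inclusion (-0.11), and the isoform ratio of -0.24, toward inclusion in set B, ranked 4682 of 12948 by size. Its start (69648179 to 69651286) had exclusion intensities of 349 and 246 and inclusion intensities of 3414 and 2337. Set B had 70.5% of the exclusion intensity and 68.5% of the inclusion intensity of set A. Because both paths differed alike, the isoform ratio was 0.04.

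*Nlgn3* had a single event, the 60-nt cassette exon (98497750 to 98502434) on the plus strand of chromosome X. Its exclusion intensities were 1187 and 1098 and its inclusion intensities 428 and 414, for an isoform ratio of -0.06. The 60-nt cassettes of *Nlgn1* and *Nlgn3*, which share this length, lay on opposite sides of 0.

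Cassette exons made up 8 of the 15 member events. Their median absolute isoform ratio was 0.11, against 0.19 over all 3763 cassette events, and 3 of them (37.5%) were above 0, against 56.6% of all cassette events. All 8 segments had a length that is a multiple of 3, and so keep the reading frame where they lie in coding sequence. Over the 3738 cassette events with a length in their name, 53.2% had such a length. The 3 member starts had a median absolute isoform ratio of 0.04, against 0.16 over 2248 alternative starts.

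The neurexin and neuroligin events were mostly dimmer in set B. The median level difference of the 15 events was -0.12 (range -0.54 to 0.13), against 0.00 over all events, and 12 of 15 were lower in set B (80.0%), against 50.8% of all events. Of the 15, 8 lay below the 25th percentile of all events, -0.11. Only the *Nlgn2* start was past 0.5 in size, at -0.54, and 0.811% of all events were past it. Its summed intensity went from 3763 (set A) to 2583 (set B), and 0.209% of all events had a lower level difference. The *Nlgn2* cassette exon had a level difference of -0.15, with summed intensities of 1920 and 1734. Events of 1 gene are read by different probes of the same transcripts and are not replicates of each other, so the *Nlgn2* values give a range of -0.54 to -0.15 for the gene. In bulk brain RNA, fewer cells of a type and less RNA per cell cannot be told apart.

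All 6 neuroligin events and 6 of the 9 neurexin events were lower in set B, and the median level difference was -0.12 in each family. In *Nrxn2*, the level differences ran from -0.34 at the 3' splice site to 0.13 at the 24-nt cassette, so no common shift of the gene was seen. In *Nrxn3*, 3 of the 4 were lower, from -0.30 at the upstream complex event to -0.12 at the downstream one, and the 90-nt cassette was at 0.04. *Nlgn1* ranged from -0.26 at the 5' splice site to -0.08 at its start, and the *Nlgn3* cassette was at -0.10. By type, the 3 member starts were lower in set B with a median of -0.22, whereas all alternative starts had a median level difference of 0.03. The 8 cassettes had a median of -0.06, against -0.01 over all cassettes.

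Level differences varied with brightness over the whole table. In the dimmest of 5 equal groups of events by mean summed intensity, 35.3% were lower in set B with a median of 0.06, and in the brightest group 59.7% were lower with a median of -0.03. Of the 10 member events in the brightest group, 9 were lower in set B, with a median level difference of -0.14, and the *Nlgn2* start was 1 of 6 events among the 2590 of that group whose level was past 0.5. The share of the level differences that goes with brightness was not tested.

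Neuronal markers were read in the same pools, since the members are expressed largely by neurons. Of 11 marker genes, 5 had an event, and 3 of the 5 events were lower in set B, with a median of -0.07. Their intensities summed to 45921 and 44598, and *Snap25*, the marker with the strongest probe signal, stood at 20035 and 19107. The glutamate transporter of excitatory terminals, *Slc17a7*, had a level difference of 0.11 and *Gad1*, which makes the transmitter of inhibitory ones, at -0.10. The part of neuron content in the member levels was not tested.

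**Figure D3:**
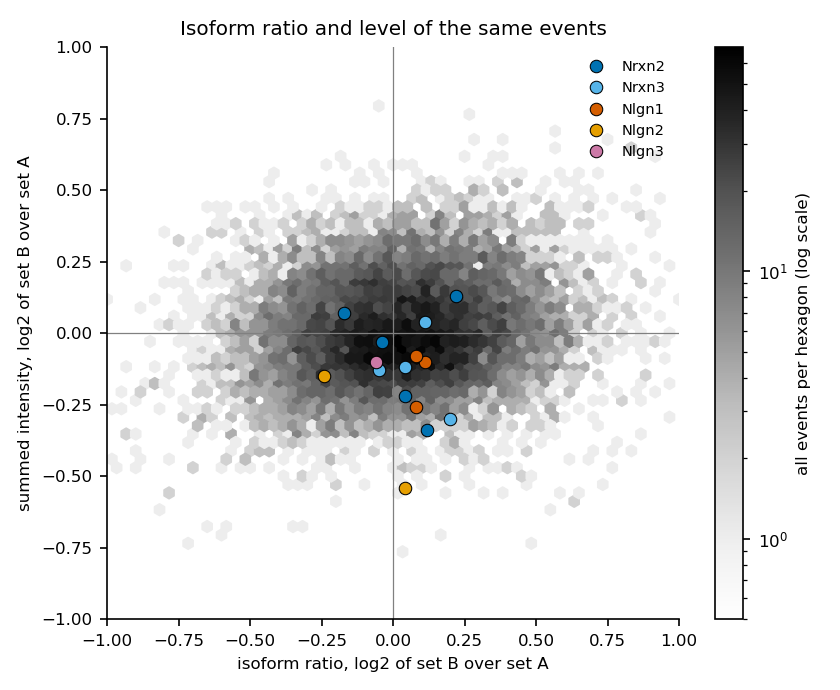
Isoform ratio (horizontal, log2 of set B over set A) against level difference (vertical, log2 of summed intensity in set B over set A) for the neurexin and neuroligin events (coloured points) over all events (grey hexagons, shaded by their number on a log scale; values past 1 in size fall outside the axes). Members spread little along the horizontal axis, and the *Nlgn2* start lies lowest at -0.54 with an isoform ratio of 0.04.

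Genes of synaptic adhesion, scaffolding and splicing control around the neurexins and neuroligins were read from 4 lists. Some of them belong to parallel adhesion systems, among them the receptor phosphatases *Ptprd*, *Ptprf* and *Ptprs* and the *Slitrk* genes, *Ntrk3* and *Il1rapl1*, whose proteins bind such phosphatases. Of 71 partner symbols listed, 45 had a total of 124 events, of which 4 (3.23%) had an isoform ratio past 0.5, against 7.34% of all events and 4.63% of the brightest group. Their median absolute isoform ratio was 0.16, against 0.18 over all events, and 68 (54.8%) were above 0, against 55.5% of all events. In level, 90 of 124 (72.6%) were lower in set B, against 50.8% of all events and 59.7% of the brightest group. The median level difference of the partner events was -0.09, with a range of -0.35 to 0.47, and none was past 0.5. The *Nlgn2* start at -0.54 therefore lay below each partner event.

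In the list of postsynaptic ligands and organizers, 13 of 23 genes had 27 events, none of them past 0.5 in isoform ratio, with a median absolute value of 0.14. The brightest were a 30-nt cassette of *Clstn1*, a calsyntenin gene, and a complex event of *Igsf9b*, an adhesion molecule of inhibitory synapses. The *Clstn1* cassette had exclusion intensities of 3070 and 2750, inclusion intensities of 1714 and 1398 and an isoform ratio of 0.14. The *Igsf9b* event had an isoform ratio of -0.06. Levels were lower in 16 of the 27 (59.3%), and the highest partner level difference was in a complex event of *Dag1*, the dystroglycan gene, at 0.47. On the presynaptic side, 9 of 15 genes had 21 events, none past 0.5, with a median absolute isoform ratio of 0.16 and a largest value of 0.49. The 80-nt cassette of *Syt1*, the calcium sensor of vesicle release, had exclusion intensities of 9130 and 8631 and inclusion intensities of 1963 and 1684, for an isoform ratio of 0.14. Levels were lower in 16 of these 21 events (76.2%).

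Postsynaptic scaffolds had the most events, 57 in 15 of 18 genes, with 42 (73.7%) lower in level in set B and 2 past 0.5 in isoform ratio. These were the start of *Shank3*, with exclusion intensities of 428 and 504, inclusion intensities of 788 and 613 and an isoform ratio of 0.60, and the 42-nt cassette of *Dlgap2*, with 210 and 267 for exclusion, 321 and 275 for inclusion and a ratio of 0.57. The brightest scaffold events were a complex event of *Dlgap1* (isoform ratio -0.24) and the 110-nt cassette of *Dlg4*, the gene of PSD-95, which binds neuroligins (0.12, with inclusion intensities of 5878 and 6438). Shank3 and Dlgap2 proteins belong to the same scaffold as Dlg4.

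Of the 15 symbols listed for regulators of neurexin splicing, 8 had events, 19 in all. The 15 hold older and newer symbols of the same gene (*A2bp1* and *Rbfox1*, *Rbm9* and *Rbfox2*), of which the table uses the older. In isoform ratio 2 of 19 (10.5%) were past 0.5, beside 7.34% of all events. They were the alternative 5' splice site of *Nova2* at -0.56 (exclusion 1139 and 1044, inclusion 665 and 899) and an alternative end of *Ptbp2* at 0.53 (exclusion 1682 and 1583, inclusion 321 and 209). The *Ptbp2* event was not past 0.5 with an offset of 16 or with centring (0.50 in each). Both encode RNA-binding proteins of neurons. *A2bp1* had the brightest events of the list, a 53-nt cassette at 0.16 and mutually exclusive exons at -0.09. Levels were lower in 16 of the 19 events (84.2%), with a median of -0.04. Beside these, the cassette exons of *Nrxn2*, *Nrxn3*, *Nlgn1*, *Nlgn2* and *Nlgn3* ranged from -0.24 to 0.22 in isoform ratio.

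**Figure D4:**
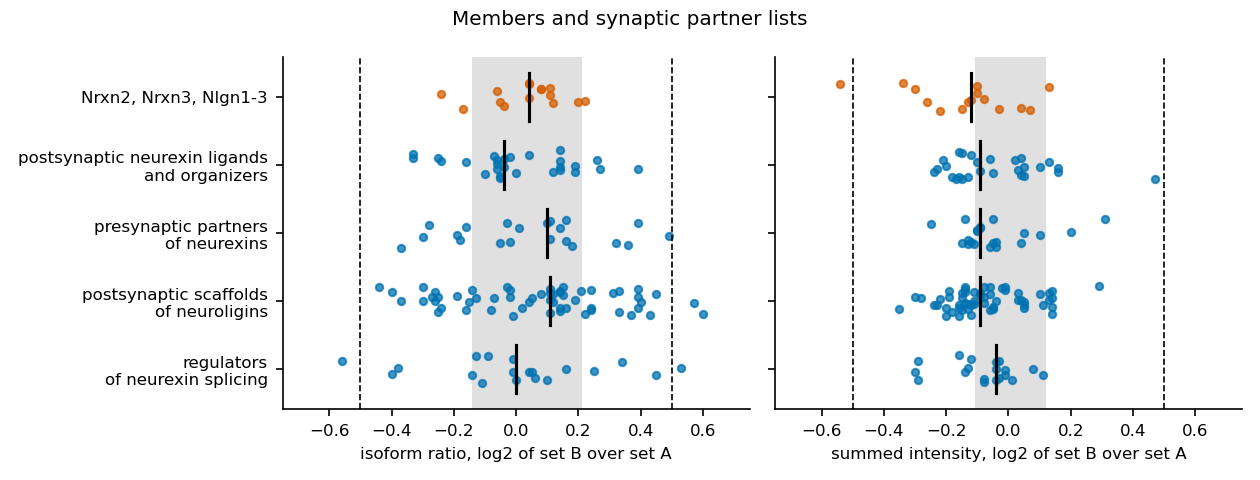
Isoform ratio (left) and level difference (right), both as log2 of set B over set A, for each event of the neurexins and neuroligins (top row) and of the 4 partner lists, with black bars at the medians, shading over the middle 50% of all events and dashed lines at 0.5 in size. Members cluster within 0.24 of 0 on the left, and on the right the *Nlgn2* start lies farthest from 0 at -0.54.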

How the data were processed

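Brain total RNA of 6 mice was measured on Affymetrix MJAY arrays. The authors' deposited table gives intensities, as whole numbers from 43 to 13185, for the exclusion and inclusion paths of each event, pooled over the arrays of set A or set B, and another column set for an unpaired comparison holds the same intensities. The submitters' processing notes name Affymetrix Power Tools. Its version, the array normalization, the background correction and the genome build are not given in the sources used here, and each could shift an intensity. Score and q-value columns of the authors hold their own comparison and were not used, apart from the sign of the score for naming the sets.

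From the 26514 paths, events were assembled by name. The path with the largest absolute isoform ratio stood for its event, with no offset, filter or centring, and an event was counted past the fold above 0.5 in size. The pooled intensities allow no test across mice, so members are described beside the whole table. The calculation was run on simulated data with known changes and no noise, which checks the arithmetic and not the precision of small ratios. The members, the partner lists and the marker lists were chosen with earlier results of these data known. All members and their events are named, and of each partner list the events past 0.5 and the 2 brightest, of which 1 is not reported here; *Dag1* was named after its value was seen. Alternatives were folds of 0.3 and 1, intensities of 100 or more, an offset of 16, centring, mean log2 intensities, the unpaired columns and paths in place of events. Python 3.11.15, numpy 2.4.6, pandas 2.3.3 and matplotlib 3.10.9 were used.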

Additional observations from a re-analysis of the deposited data

How the results depend on the processing

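No neurexin or neuroligin event was past the isoform fold at 0.3, 0.5 or 1, nor with intensities of 100 or more, an offset of 16, centring on the median of all events, or paths in place of events. The unpaired columns hold the same intensities, so they gave the same values by construction. The median absolute isoform ratio of the members, 0.08, was 0.09 with intensities of 100 or more, which leaves out the 26-nt event of *Nlgn1*, and 0.10 with an offset of 16; the cause of the latter was not tested. The count of partner events past the fold was 31 at a fold of 0.3, against 4 at 0.5. It was 3 with an offset of 16 and 3 with centring, where the *Ptbp2* end, at 0.53 otherwise, came to 0.50 and was no longer past the fold. An offset of 16 moved single isoform ratios by at most 0.03 and centring moved each by at most 0.04, with no change of sign among the 15. At a level fold of 0.3, an alternative chosen after seeing the data, 2 member events were past it in place of 1.

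The pooled intensities allowed no paired analysis here because no intensities of single arrays are in the table, and no replicate was left out for the same reason. The authors' own comparison, held in their score and q-value columns, was not used for these values. With 3 arrays per set and no spread, the precision of every value is unknown, and dim paths such as the exclusion path of the 26-nt event of *Nlgn1* (103 and 91) lie close to the low end of the table.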

Other observations

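Markers of other brain cell types were read in the same pools. All 6 astrocyte genes had events, 9 in all, summing to 48048 and 49566, with a median level difference of 0.10. Glutamate transporter *Slc1a3* was at 0.10 and 0.14, and *Slc1a2* at -0.18 and 0.02. Oligodendrocyte genes had 9 events at a median of -0.05, summing to 53104 and 51488, with *Mbp* between -0.10 and -0.05. Microglial genes had 3 events at a median of 0.00, among them an alternative 3' splice site of *Csf1r* with an isoform ratio of -1.13. Endothelial genes had 6 events, 4 of them lower in set B, at a median of -0.11 (range -0.21 to 0.29). None of the 5 hepatocyte genes listed had an event, and liver RNA was not looked for.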
